A study of Mus musculus with 16 samples.

Results

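Th17 cells without pyruvate dehydrogenase that were differentiated with sodium acetate (KO acetate) were compared here with the same kind of cells differentiated without it (KO untreated). The members of the comparison were the libraries whose column names give the knockout genotype and either treatment. They numbered 8 of the 16 libraries of the series, 4 in each group, and the comparison ran over all genes of the deposited table. Th17 cells are the helper T cells that secrete IL-17, and RNA sequencing counted their polyadenylated transcripts gene by gene.

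Naive CD4+ T cells were isolated by magnetic sorting from spleen and lymph nodes of mice whose PDH alleles were flanked by loxP sites (PDHfl/fl). In KO mice the CD4 Cre+ transgene removed the flanked part in T cells, and cells of PDHfl/fl mice without the transgene are called WT. Mouse ages are not stated in the labels. All cells of the 4 groups, WT untreated, WT acetate, KO untreated and KO acetate, were cultured for 3 days under the same Th17 conditions. These were plate-bound anti-CD3 (5 µg/mL), anti-CD28 (1 µg/mL), IL-6 (30 ng/mL), TGFβ (2 ng/mL) and an antibody that blocks IFNγ (5 µg/mL). Sodium acetate was present at 10 mM during differentiation in the acetate groups. No group received another sodium salt or carried CD4 Cre without the loxP-flanked alleles, so effects of sodium and of Cre cannot be told apart from those of acetate and of the deletion. CD4-Cre acts while T cells develop in the thymus. Whether libraries stem from separate mice or cultures is not stated, and p-values therefore measure the spread between these libraries, which may be technical. The sample titles write PHD where the protocols write PDH, and the deleted gene and exons are not named, so counts over whole genes do not check the genotype.

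The PDH complex turns pyruvate into acetyl-CoA inside mitochondria, where acetyl-CoA feeds the TCA cycle. Citrate made in that cycle can leave the mitochondrion and be split by ATP citrate lyase (Acly) into the acetyl-CoA that is used outside it, for fatty acids, sterols and the acetylation of histones. Acetate offers another way in. Acyl-CoA synthetase ACSS1 joins acetate to coenzyme A in mitochondria and ACSS2 does so in the cytosol and the nucleus. Th17 differentiation itself rests on IL-6 and TGFβ, which act through STAT3 and SMAD proteins towards Il17a, Il17f and Il23r.

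The 8 KO libraries held 26.7 to 31.5 M counts each (1 M is 1000000). On the first principal component of their log2 CPM, which took 48.0% of the variance, the 4 untreated libraries lay between −43.3 and −40.1 and the 4 acetate libraries between 31.5 and 49.0. One gene without a name in the reference took over 3% of the counts in KO untreated 1 and 2, KO acetate 2 and WT untreated 1, which are called the high-share libraries. Its share averaged 3.49 ± 3.95% in KO untreated and 2.87 ± 3.43% in KO acetate libraries (SD, n = 4, exact permutation p = 0.714). The T cell markers Cd3e, Cd3d, Cd3g, Cd4, Cd247, Lck, Cd28 and Cd2 summed to 2167 to 2277 CPM in KO untreated and 2306 to 2339 CPM in KO acetate libraries. CPM is a gene's count per M counts of the library after TMM scaling, and values below are the mean ± SD of the 4 libraries of each group, KO untreated first. Of the markers of B, myeloid, dendritic, natural killer and erythroid cells 21 were in the table, 7 of 8 for B cells, 5 of 12 for myeloid cells, 5 of 10 for dendritic cells, 4 of 8 for natural killer cells and none of 8 for erythroid cells and platelets. They summed to 207 to 256 CPM in KO untreated and 76.8 to 111 CPM in KO acetate libraries. Without Cd74 they summed to 18.5 to 32.8 CPM in KO untreated and 27.5 to 40.7 CPM in KO acetate libraries. Cd74, the invariant chain of MHC class II, fell from 202 ± 16.7 to 53.8 ± 11.6 CPM.

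Acetate changed the level of 6550 of 14985 genes tested in KO cells, or 43.7%. Of these, 3314 rose (22.1%) and 3236 fell (21.6%). These shares are the background for the count of each gene list. A gene was called, and is said to have risen or fallen, when edgeR's quasi-likelihood test gave an adjusted p under 0.05 over all genes. By 2-fold or more 852 genes rose (5.69%) and 651 fell (4.34%). In 5280 of the called genes (35.2% of genes tested) all 4 libraries of one group lay above all 4 of the other. The median log2 fold change over all genes was −0.01 with TMM scaling and 0.09 when libraries were scaled by their totals alone, a shift that made 4229 genes higher and 2085 lower. In bulk RNA a lower share of cells that express a gene and less of its RNA per cell cannot be told apart.

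**Figure D1:**
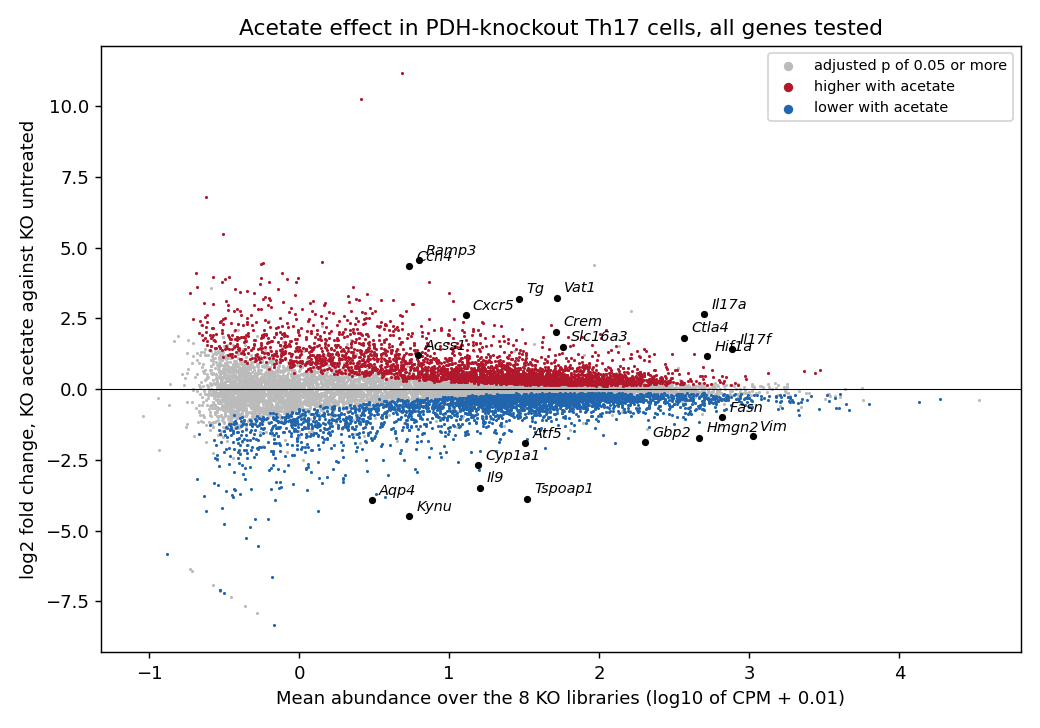
Each point is 1 of the 14985 genes tested, with its mean abundance over the 8 KO libraries as log10 of CPM plus 0.01 and its log2 fold change between KO acetate and KO untreated cells. Red and blue points passed the edgeR test as higher or lower, grey points did not, and black points mark some of the genes named in the text. Il17a, Il17f, Hif1a and Ctla4 were abundant genes among the rises, and Vim, Hmgn2 and Fasn among the falls.

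Of the genes that handle acetate, Acss1, the mitochondrial acetate-activating enzyme, changed most. It stood at 2.25, 4.11, 4.89 and 3.71 CPM in KO untreated and 9.16, 9.64, 8.72 and 6.85 CPM in KO acetate libraries. The groups did not overlap, and the gene rose 2.29-fold (log2 fold change 1.19, SE 0.181, adjusted p = 3.18e-05). Acss2, its counterpart in the cytosol and nucleus, stood at 20.9, 32.4, 25.4 and 20.5 CPM in KO untreated and 20.7, 24.3, 20.1 and 16.9 CPM in KO acetate libraries. These libraries overlapped and the change did not pass the test (log2 fold change −0.28, SE 0.253, adjusted p = 0.406). Acly was at 682 ± 7.82 and 614 ± 58.9 CPM and did not pass either (log2 fold change −0.15, SE 0.0921, adjusted p = 0.191). Acat2, a thiolase that joins acetyl-CoA units on the way to sterols, fell from 156 ± 9.75 to 109.7 ± 5.46 CPM. The 11 tested genes of acetate activation and acetyl-CoA handling had 3 higher and 1 lower members, with 5 higher when scaled by library totals, 1 higher without the high-share libraries and 2 lower without KO acetate 2.

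Among the subunits of the PDH complex, Dlat (E2) rose from 66.6 ± 2.60 to 84.3 ± 4.98 CPM, and Pdhb (E1 beta) fell from 102 ± 1.83 to 86.7 ± 3.41 CPM, a call that scaling by library totals ends (log2 fold change −0.13). Dld (E3) was at 127 ± 7.37 and 136 ± 12.8 CPM and did not pass the test. Pdha1 (E1 alpha) was at 225 ± 11.5 and 248 ± 13.05 CPM and did not pass (adjusted p = 0.0571), but it passed by DESeq2 (adjusted p = 0.0296), by library totals (0.012), when replicates 1 and 2 had their own term (0.0446), without the unnamed gene (0.0398) and without KO acetate 4 (0.0283), as higher each time. Mpc2, a subunit of the mitochondrial pyruvate carrier, fell from 31.0 ± 2.71 to 23.8 ± 3.69 CPM, with log2 fold change −0.38, SE 0.0923, adjusted p = 0.00259. Pdpr, the regulatory subunit of PDH phosphatase, fell from 30.8 ± 1.05 to 24.1 ± 0.511 CPM, while Pdk2, one of the kinases that switch PDH off, was at 2.19 ± 0.380 and 3.10 ± 0.986 CPM and did not pass (log2 fold change 0.49, SE 0.223, adjusted p = 0.082). By library totals or without KO acetate 1 it did, as higher (adjusted p = 0.0482 and 0.0394). By count, 2 of 13 tested members rose and 5 fell, against 4 and 2 by library totals, and 1 rose in the 8 KO libraries alone, without the high-share libraries, and without KO untreated 1, 2 or 4, KO acetate 2 or WT untreated 1.

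Lactate export draws on the same pyruvate pool as PDH. Slc16a3, the lactate exporter MCT4, stood at 33.8, 26.7, 29.7 and 30.4 CPM in KO untreated and 75.6, 91.1, 81.9 and 91.3 CPM in KO acetate libraries. All acetate libraries lay above all untreated ones, and the gene rose 2.82-fold (log2 fold change 1.49, SE 0.133, adjusted p = 2.29e-07). Emb, a chaperone subunit of these carriers, rose from 207 ± 14.3 to 245 ± 12.3 CPM, and Slc16a7, the carrier MCT2, rose from a low level, 0.277 ± 0.167 to 1.10 ± 0.214 CPM. Of 10 tested monocarboxylate transport genes 6 rose and none fell by edgeR, where DESeq2 called 0 lower and an unadjusted p under 0.05 gave 1. Without the high-share libraries, or without KO untreated 1, KO acetate 1 or WT untreated 1, there was 1 lower.

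Of 24 Th17 genes 12 rose and 3 fell, with a median log2 fold change of 0.50. Il17a, which encodes the signature cytokine, stood at 171, 122, 109 and 149 CPM in KO untreated and 1124, 776, 549 and 1023 CPM in KO acetate libraries. Every acetate library lay above every untreated one (log2 fold change 2.66, SE 0.310, adjusted p = 1.71e-05). Il17f, its neighbour and partner in the IL-17A/F dimer, stood at 530.0, 386, 319.6 and 438 CPM in KO untreated and 1367, 1143, 765 and 1194 CPM in KO acetate libraries, again without overlap. Il23r, the receptor through which IL-23 sustains Th17 cells, stood at 6.22, 6.61, 6.94 and 11.5 CPM in KO untreated and 23.4, 23.6, 23.8 and 26.7 CPM in KO acetate libraries, and the 2 groups were far apart (log2 fold change 1.64, SE 0.147, adjusted p = 1.41e-07). Il22, a cytokine that acts on epithelial cells, stood at 2.53, 9.46, 5.04 and 6.91 CPM in KO untreated and 14.05, 14.4, 18.4 and 20.1 CPM in KO acetate libraries, low in the untreated group and without overlap.

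Among the transcription factors of the programme, Stat3 rose from 244 ± 15.6 to 392 ± 42.1 CPM and Rora from 60.1 ± 4.27 to 98.9 ± 21.0 CPM. Hif1a, which also promotes Th17 differentiation and drives glycolytic genes, stood at 340.3, 358, 305 and 291 CPM in KO untreated and 805, 793, 684 and 619.8 CPM in KO acetate libraries, with no overlap (log2 fold change 1.16, SE 0.152, adjusted p = 1.55e-05). Nfkbiz, a nuclear IκB protein that promotes Il17a expression, rose 1.83-fold and Lgals3, the lectin galectin-3, 2.67-fold. Il1r1, the IL-1 receptor, rose 1.57-fold with libraries that overlapped. Il21, a cytokine through which helper cells act on B cells, fell from 477 ± 55.6 to 302 ± 49.9 CPM. The factor Batf (102 ± 9.82 and 109 ± 12.1 CPM), the aryl hydrocarbon receptor Ahr (71.3 ± 14.2 and 61.4 ± 3.69 CPM) and the chemokine receptor Ccr6 (56.3 ± 6.88 and 49.9 ± 3.49 CPM) did not pass the test. Without KO untreated 4 Ahr passed as lower (adjusted p = 0.0121), and without KO untreated 2 Ccr6 did (adjusted p = 0.0475). Csf2, which encodes GM-CSF, was at 26.4 ± 8.34 and 43.1 ± 6.79 CPM and did not pass either (log2 fold change 0.70, SE 0.292, adjusted p = 0.0675). It passed as higher by library totals (adjusted p = 0.0477), in the 8 KO libraries alone (0.039), when replicates 1 and 2 had their own term (0.0119), without the high-share libraries (0.0382; log2 fold change 1.11), without KO untreated 2 (0.0368) and without WT acetate 3 (0.0342).

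**Figure D2:**
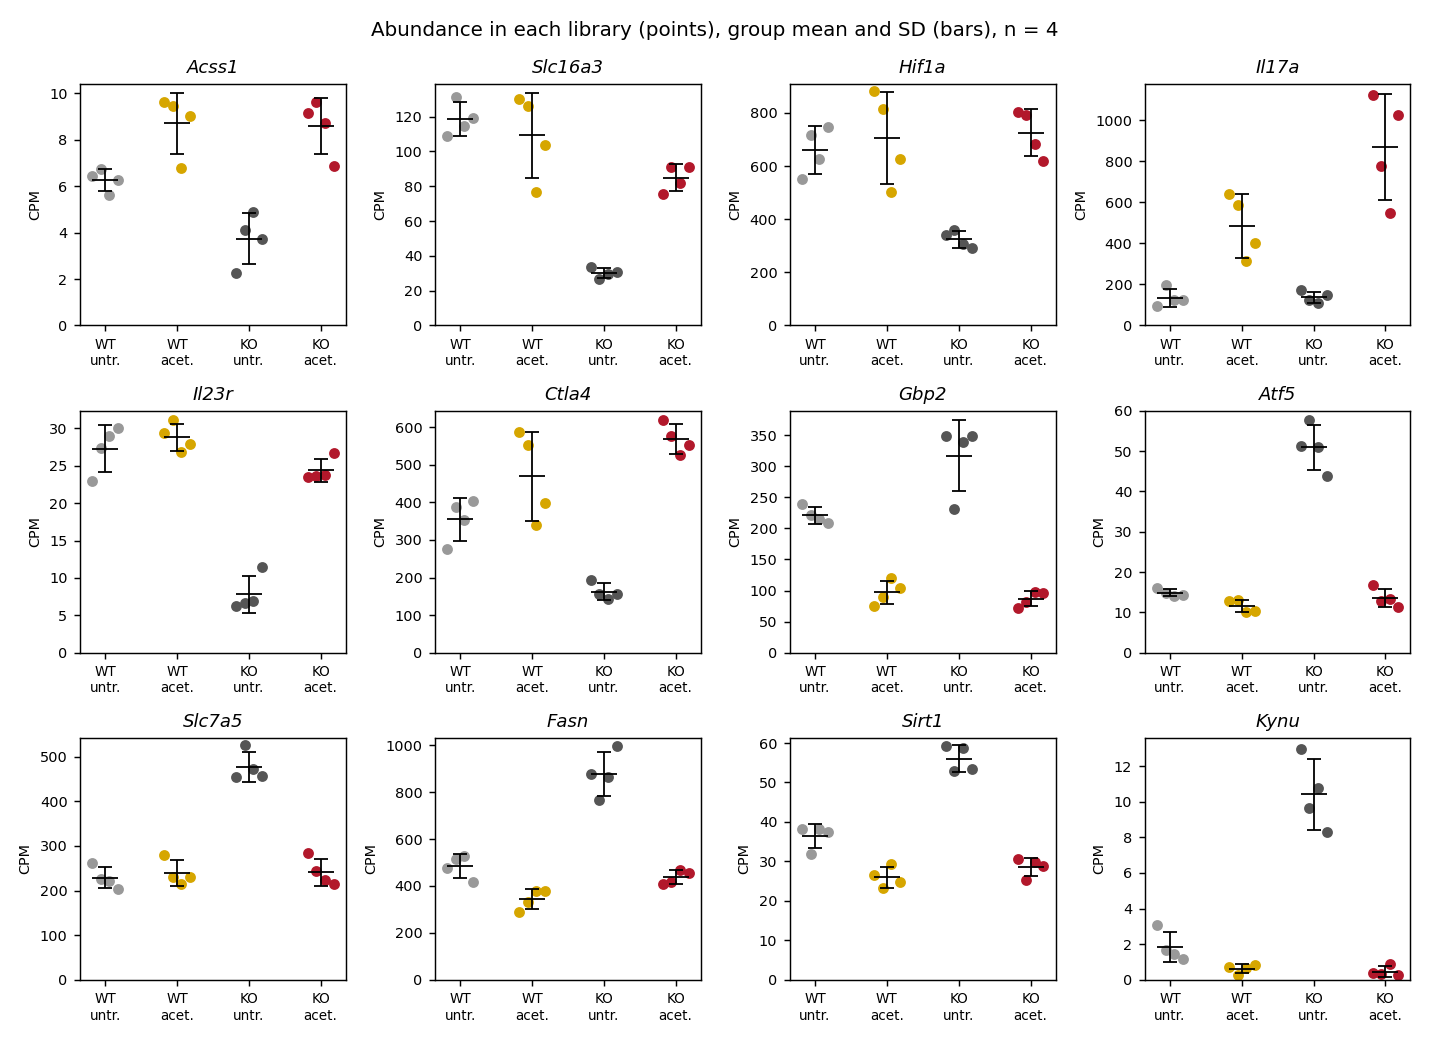
Points are the 4 libraries of each group in CPM on linear axes from 0, with the group mean and SD as bars, for 12 genes. The KO untreated group stands apart from KO acetate in every panel: it is low for Acss1, Slc16a3, Hif1a, Il17a, Il23r and Ctla4, and high for Gbp2, Atf5, Slc7a5, Fasn, Sirt1 and Kynu.

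Genes of other helper and killer T cell types changed as well. Stat4, the factor that relays IL-12, rose 3.82-fold to 161 ± 23.05 CPM, Tbx21, the Th1 factor T-bet, 2.19-fold, and Runx3, which works with T-bet and in CD8 T cells, 1.63-fold. In the same Th1 list Il27ra, the IL-27 receptor, fell 1.72-fold and Il18rap, a subunit of the IL-18 receptor, 2.31-fold, and in all 6 of 14 rose and 4 fell. Of 12 tested cytotoxic and CD8 genes 8 rose and none fell by edgeR (0 by DESeq2 and 0 at an unadjusted p under 0.05, median log2 fold change 1.30). They included perforin (Prf1, 1.64 ± 0.509 to 6.77 ± 1.57 CPM), Crtam, an adhesion receptor of cytotoxic cells (26.5 ± 4.38 to 48.0 ± 7.22 CPM), and granzyme B (Gzmb), which stood at 45.8, 33.1, 28.9 and 28.6 CPM in KO untreated and 111, 111, 94.98 and 82.8 CPM in KO acetate libraries. No library of one group reached the other. Cd8a and Cd8b1, the markers of CD8 T cells, rose from 0.540 ± 0.159 to 1.98 ± 0.387 CPM and from 6.20 ± 1.23 to 12.9 ± 1.98 CPM, while Cd4 was at 384 ± 27.1 and 404 ± 22.3 CPM and did not pass (log2 fold change 0.07, SE 0.0611, adjusted p = 0.346). The part of CD8 T cells in the rise of the cytotoxic genes was not tested.

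Il9, the Th9 cytokine, stood at 48.9, 20.1, 19.2 and 29.0 CPM in KO untreated and 2.43, 0.860, 2.69 and 4.47 CPM in KO acetate libraries. The groups did not overlap, although the untreated libraries spread widely (log2 fold change −3.48, SE 0.538, adjusted p = 0.000181). The Th2 cytokine gene Il13 rose from 1.97 ± 0.402 to 4.52 ± 1.39 CPM and the chemokine receptor Ccr8 from 19.5 ± 0.805 to 45.2 ± 8.20 CPM. Among genes of regulatory T cells, Nrp1, a surface receptor, fell 2.44-fold and the factor Ikzf4 fell 1.78-fold, while the receptor Il10ra rose 1.95-fold and Ebi3, a subunit of IL-27 and IL-35, 1.66-fold. The list had 4 higher and 4 lower of 14, or 4 and 2 by library totals. Cxcr5, the receptor that takes helper cells to B cell follicles, stood at 3.19, 5.25, 2.66 and 3.27 CPM in KO untreated and 18.9, 26.4, 23.3 and 19.9 CPM in KO acetate libraries, more than the spread of either group apart. Bcl6, the factor of follicular helper cells, rose 2.11-fold, and Tox fell 1.33-fold. Of 16 naive and memory genes 7 fell, among them Lef1 (248 ± 11.8 to 179.9 ± 18.7 CPM) and Klf3 (15.3 ± 1.72 to 9.69 ± 0.336 CPM), and 3 rose, among them Satb1 (595 ± 25.6 to 801 ± 81.6 CPM) and the surface antigen Ly6c1 (0.246 ± 0.114 to 2.10 ± 0.424 CPM).

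Among cytokines outside these lists, Lif, an IL-6 family cytokine, rose from 255 ± 10.4 to 601 ± 3.06 CPM, and Inhba, which encodes the activin A subunit, from 132 ± 10.4 to 294 ± 53.9 CPM. Il16 fell from 114 ± 8.41 to 72.7 ± 6.60 CPM. Over all interleukins and growth factors 13 of 31 rose and 5 fell, or 3 fell without KO untreated 2. Of 33 cytokine receptor genes 6 rose and 10 fell. The largest fall there was in Prlr, the prolactin receptor, from 7.01 ± 1.06 to 0.849 ± 0.208 CPM, and Crlf2, the TSLP receptor, fell 1.92-fold. The chemokine Ccl3 rose from 27.0 ± 6.66 to 97.3 ± 26.3 CPM and Ccl4 from 58.1 ± 15.5 to 106 ± 24.6 CPM, whereas the interferon-induced chemokine Cxcl10 fell from 6.38 ± 2.91 to 1.62 ± 0.634 CPM, with overlapping libraries. Of the TGFβ receptors Tgfbr2 rose 1.43-fold and Tgfbr1 fell 1.39-fold.

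Of 23 genes that T cell receptor signals switch on early, 10 rose and 4 fell. The nuclear receptor Nr4a2 rose from 11.4 ± 1.19 to 49.4 ± 8.38 CPM, the AP-1 subunit Fosl2 from 45.6 ± 4.92 to 159 ± 28.7 CPM, Ier3 from 7.99 ± 1.48 to 21.0 ± 1.84 CPM and the cAMP-responsive factor Crem from 20.3 ± 3.76 to 82.8 ± 21.5 CPM. Myc went the other way, from 599 ± 64.8 to 404 ± 21.2 CPM (log2 fold change −0.57, SE 0.0839, adjusted p = 2.5e-05). Ctla4, the inhibitory receptor that competes with CD28, stood at 194, 156, 143 and 155 CPM in KO untreated and 620.1, 577, 527 and 553 CPM in KO acetate libraries, without overlap (log2 fold change 1.81, SE 0.165, adjusted p = 4.89e-07). Tigit rose 4.69-fold, Lag3 2.06-fold and Vsir (VISTA) 1.36-fold, and 6 of 13 inhibitory receptor genes rose while 1 fell, a call that scaling by library totals ends. Feedback inhibitors of MAP kinase signalling had 9 higher and no lower members of 19 by edgeR, where DESeq2 called 0 lower and an unadjusted p under 0.05 gave 1. A fit of the 8 KO libraries alone called 1 lower. Dusp3 rose 8.68-fold, Dusp4 2.17-fold, Dusp5 2.35-fold and Spred2, an inhibitor of RAS to RAF signalling, 2.01-fold.

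The receptor and its proximal kinases were mixed, with 8 of 25 genes higher and 5 lower, or 10 and 2 by library totals and 5 higher without the high-share libraries. Cblb, a ubiquitin ligase that restrains the receptor, rose 2.86-fold, the phosphatase Ptprc (CD45) 1.39-fold and Cd247 (zeta chain) 1.29-fold, whereas Cd3e fell 1.34-fold. Within NF-κB signalling Rel rose from 115 ± 10.6 to 294 ± 30.1 CPM and Nfkb1 from 426 ± 40.6 to 594 ± 29.0 CPM, while the inhibitor Nfkbia fell from 350.4 ± 14.6 to 235 ± 18.9 CPM, Relb from 78.9 ± 4.54 to 46.1 ± 3.26 CPM and the ubiquitin ligase Birc3 from 147 ± 9.63 to 83.8 ± 5.23 CPM. Among TNF family genes Tnfsf8 (CD30 ligand) fell from 286 ± 24.7 to 135 ± 7.83 CPM and Tnfsf4 (OX40 ligand) from 55.4 ± 3.90 to 19.4 ± 1.98 CPM, and Cd40lg rose from 107 ± 7.66 to 182 ± 4.13 CPM. Pim2, a survival kinase induced by cytokines, fell from 442 ± 23.8 to 189 ± 26.1 CPM, Jak3, the kinase of the common gamma chain, from 214 ± 9.33 to 136 ± 5.02 CPM, and Cish, a STAT5 target that dampens cytokine signals, from 313 ± 18.2 to 227 ± 20.8 CPM. Their list, STAT5, SOCS and cytokine feedback, had 6 higher and 8 lower of 23, with a median log2 fold change of 0.04. By library totals 8 rose and 8 fell, and without the high-share libraries 2 rose and 10 fell.

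Interferon-inducible GTPases, which attack the vacuoles of intracellular pathogens, formed the list with the lowest median. Of 18 tested, 16 fell and 1 rose, with a median log2 fold change of −1.19 (−1.07 by library totals). These genes lie in clusters of near-identical copies between which reads can be divided wrongly, so single members are uncertain. Interferons act through STAT and IRF proteins, and IRF proteins bind repeats of GAAA in promoters of such genes. Promoters of some of these genes, and of Isg15 and Ifit1 from the list of other interferon-stimulated genes, are shown to give the letters searched for in their context. They come from RefSeq on GRCm38.p6, on the strand of the gene, from bases before its annotated start, and capitals mark 1 pair of GAAA with 2 bases of any kind between them, or its reverse complement (a pair of TTTC).
Gbp2, chr3:142620579-142620638: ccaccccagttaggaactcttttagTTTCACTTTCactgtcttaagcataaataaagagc
Gbp5, chr3:142496744-142496803: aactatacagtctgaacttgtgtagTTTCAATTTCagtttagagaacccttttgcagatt
Gbp3, chr3:142559974-142560033: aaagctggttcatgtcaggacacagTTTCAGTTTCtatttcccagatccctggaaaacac
Irgm1, chr11:48871421-48871475: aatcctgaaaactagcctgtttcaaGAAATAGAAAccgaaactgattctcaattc
Isg15, chr4:156200850-156200909: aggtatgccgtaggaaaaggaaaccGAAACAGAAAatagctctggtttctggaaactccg
Ifit1, chr19:34640760-34640819: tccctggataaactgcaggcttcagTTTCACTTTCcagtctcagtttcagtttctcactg

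The matches end 50 bases before the start in Gbp2, 156 in Gbp5, 36 in Gbp3, 21 in Irgm1, 57 in Isg15 and 95 in Ifit1. Of the 10 GTPase genes with a promoter in the reference table, 9 held the motif on either strand within 250 bases before to 50 bases after the start. Of these 9 genes 7 fell, 1 rose and 1 was not called. Of the 24 other interferon-stimulated genes that have a promoter there, 10 held it (41.7%), of which 5 fell, 2 rose and 3 were not called. Matches can overlap one another where GAAA repeats follow closely. Of 32851 promoters of that length 3.44% held it, as did 3.82% of genes tested. It was in 4.6% of all lower and 3.15% of all higher genes. At more than 2-fold it was in 6.62% of lower genes (28 of 423) and 3.91% of higher ones. Gbp2, Gbp3, Gbp5, Isg15 and Ifit1 are among those 28. Motifs for ATF4, sterol, hypoxia and ROR regulation were searched too. In that order 2.89, 1.34, 28.5 and 0.244% of lower genes held them. Among higher genes the shares were 2.76, 1.66, 29.4 and 0.236%. A match is a description of the letters, and Irgm1 and Oas3 were among the holders that rose.

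Gbp2, the most abundant of the GTPase genes named here, stood at 349, 232, 339.7 and 349 CPM in KO untreated and 71.7, 81.6, 97.7 and 95.7 CPM in KO acetate libraries. The groups were far apart (log2 fold change −1.87, SE 0.152, adjusted p = 1.64e-07). Gbp6 fell from 33.9 ± 3.48 to 9.29 ± 0.935 CPM, Gbp5 from 91.0 ± 12.5 to 39.3 ± 4.58 CPM, Gbp3 from 18.2 ± 2.84 to 8.71 ± 0.770 CPM and the giant GTPase Gvin1 from 101 ± 17.5 to 35.9 ± 4.11 CPM. Irgm1 rose from 16.8 ± 1.28 to 23.6 ± 2.13 CPM, with log2 fold change 0.49, SE 0.0858, adjusted p = 0.000152. Of 33 other interferon-stimulated genes 18 fell and 5 rose, the rises being 2 without the high-share libraries and 3 without KO untreated 2, KO untreated 4 or KO acetate 3. Irf7, the factor that amplifies interferon production, stood at 1.52, 1.81, 2.45 and 1.29 CPM in KO untreated and 0.472, 0.187, 0.390 and 0.639 CPM in KO acetate libraries, all low, with every acetate library under every untreated one. Isg15, a ubiquitin-like modifier, fell from 3.72 ± 1.03 to 1.23 ± 0.352 CPM, Ifit1 from 3.07 ± 0.908 to 1.13 ± 0.344 CPM, Irf1 from 44.2 ± 2.72 to 26.2 ± 1.45 CPM and the antiviral factor Ifi35 from 36.9 ± 2.14 to 23.2 ± 2.77 CPM. Oas3, which makes an activator of RNase L, rose from 11.5 ± 2.19 to 21.4 ± 1.32 CPM. In MHC class I presentation, Tapbp (tapasin) fell from 113 ± 16.7 to 49.4 ± 2.69 CPM, the peptide transporter Tap1 from 94.2 ± 9.04 to 64.8 ± 6.37 CPM and the immunoproteasome subunit Psmb9 from 62.0 ± 3.95 to 39.7 ± 5.12 CPM. Psmb8, another immunoproteasome subunit, rose from 154 ± 9.02 to 203 ± 11.1 CPM, and the list had 5 higher and 9 lower of 24, or 6 and 7 by library totals.

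Genes of the ATF4 stress response, a programme that cells start under amino acid shortage or mitochondrial disturbance, fell in 10 and rose in 3 of 23 cases (median log2 fold change −0.51). Without the high-share libraries 6 fell, and by library totals 6 rose and 9 fell. Atf5, a relative of Atf4 in the same response, stood at 51.3, 57.6, 50.9 and 43.9 CPM in KO untreated and 16.8, 12.9, 13.3 and 11.4 CPM in KO acetate libraries. The untreated libraries were all higher (log2 fold change −1.90, SE 0.114, adjusted p = 8.73e-10). Atf4 fell from 570.3 ± 35.5 to 359 ± 44.6 CPM, Cebpb, a bZIP partner, from 23.8 ± 4.23 to 10.3 ± 2.16 CPM, Sesn2, a leucine sensor upstream of mTORC1, from 94.3 ± 8.41 to 55.4 ± 7.18 CPM and the secreted glycoprotein Stc2 from 8.56 ± 2.48 to 1.499 ± 0.976 CPM. The rises were those of Ndrg1 (51.6 ± 7.42 to 101 ± 16.7 CPM), which hypoxia also induces, Cbs (1.47 ± 0.503 to 2.90 ± 0.845 CPM), an enzyme of transsulfuration whose call was lost without the high-share libraries, and Eif2ak3 (31.1 ± 2.55 to 39.2 ± 2.88 CPM), the ER stress kinase PERK.

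Among carriers that bring amino acids into the cell, Slc7a5, which imports leucine and other large neutral amino acids, stood at 454, 526, 473 and 458 CPM in KO untreated and 283, 243, 223 and 215 CPM in KO acetate libraries, without overlap (log2 fold change −0.99, SE 0.0976, adjusted p = 2.49e-07). Its partner chain Slc3a2 fell from 205 ± 30.7 to 117 ± 13.2 CPM, the neutral amino acid carrier Slc38a2 from 173 ± 6.15 to 112 ± 10.0 CPM and the arginine carrier Slc7a1 from 373 ± 17.5 to 258 ± 36.0 CPM. Slc6a6, the taurine carrier, rose from 151 ± 8.93 to 215 ± 19.4 CPM and Slc36a4 from 27.8 ± 1.47 to 41.0 ± 2.54 CPM. Of 21 carriers 10 fell and 4 rose. The falls numbered 6 without KO acetate 3 and 7 by library totals, where 5 rose, and the rises 2 without the high-share libraries, KO untreated 4, KO acetate 1 or KO acetate 2. Serine and one-carbon genes were split, 5 higher and 5 lower of 21, with 3 higher without the high-share libraries. Phgdh, the first enzyme of serine synthesis, fell from 429.9 ± 39.7 to 297 ± 32.3 CPM, Shmt2 from 509 ± 45.7 to 283 ± 42.0 CPM and Mthfd1l from 157 ± 6.95 to 106 ± 6.59 CPM. Of the enzymes that load tRNA in the cytosol, Vars fell 1.36-fold and Qars rose 1.34-fold.

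Genes of the unfolded protein response of the endoplasmic reticulum had 8 higher and 4 lower of 23, or 11 and 2 by library totals. Pdia6, Dnajb11 and Hyou1, which help proteins fold there, rose 1.45-, 1.47- and 1.31-fold, while Herpud1, which serves the degradation of misfolded proteins, fell from 103 ± 7.67 to 62.7 ± 5.00 CPM and its relative in that task Derl3 from 2.94 ± 0.628 to 0.407 ± 0.186 CPM. Heat shock genes rose in 7 of 17 cases with 1 lower, or 4 higher and 2 lower without KO untreated 2. Bag3, a co-chaperone of HSP70, rose 2.14-fold and Hspa4l 1.59-fold, and the heat shock factor Hsf1 fell 1.33-fold. Targets of p53 fell in 17 of 30 cases and rose in 2 (median log2 fold change −0.27). The rises were 1 without any 1 of KO untreated 1, 2 and 4 and KO acetate 1, 2 and 3 or in the 8 KO libraries alone, and 0 without the high-share libraries. Gadd45a, a growth arrest gene, fell from 12.9 ± 1.85 to 4.59 ± 0.216 CPM, the death effector Bax from 193 ± 10.99 to 120.1 ± 21.6 CPM, Plk2 from 131 ± 19.9 to 71.5 ± 4.87 CPM and Ccng1 from 555 ± 26.2 to 377 ± 24.5 CPM.

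In central carbon metabolism single enzymes moved in both directions. Among 26 glycolysis genes 7 rose and 6 fell, against 11 and 4 by library totals. Hexokinases Hk1 (147 ± 5.38 to 225 ± 18.2 CPM) and Hk2 (92.3 ± 10.7 to 147 ± 17.8 CPM) rose, as did Pfkfb3 (36.1 ± 1.95 to 58.4 ± 3.01 CPM), which makes the activator of phosphofructokinase, and Eno3 (8.49 ± 0.723 to 18.4 ± 1.26 CPM). The glucose carrier Slc2a6 fell from 42.9 ± 2.64 to 25.2 ± 1.67 CPM. In the pentose phosphate pathway Taldo1 rose from 101 ± 4.73 to 147 ± 10.2 CPM and Pgls fell from 71.7 ± 5.41 to 43.2 ± 6.60 CPM. Among hypoxia genes 9 of 24 rose and 4 fell, the falls being 1 by library totals (where 10 rose), in the 8 KO libraries alone or without KO untreated 3, KO acetate 1 or KO acetate 3, and 2 without the high-share libraries or KO untreated 2 or 4. Among them P4ha2, a collagen prolyl hydroxylase, rose 2.61-fold, and Kdm3a, a histone demethylase, fell 1.26-fold.

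Genes of the TCA cycle and its feeders rose in 13 of 32 cases and fell in 7, against 13 and 2 by library totals. Pcx, pyruvate carboxylase, which makes oxaloacetate from pyruvate without passing through PDH, stood at 24.4, 22.7, 24.4 and 23.7 CPM in KO untreated and 10.1, 11.6, 8.90 and 8.09 CPM in KO acetate libraries, with no overlap (log2 fold change −1.30, SE 0.122, adjusted p = 1.38e-07). Suclg1 rose from 67.9 ± 3.59 to 98.5 ± 2.90 CPM and Idh3a from 116 ± 6.17 to 162 ± 4.86 CPM, whereas Idh3g, another subunit of the same dehydrogenase, fell from 95.3 ± 7.5 to 69.2 ± 5.10 CPM. The aspartate-glutamate carrier Slc25a12 rose from 57.2 ± 5.63 to 90.0 ± 4.63 CPM and the glutaminase Gls2 from 6.82 ± 1.09 to 13.8 ± 1.37 CPM.

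Of 37 nuclear genes of respiratory complex I and its assembly 16 fell, or 8 by library totals. None rose by edgeR, 0 by DESeq2 and 0 at an unadjusted p under 0.05. Ndufs3 went from 61.8 ± 3.92 to 44.2 ± 5.51 CPM and Ndufa2 from 44.7 ± 3.06 to 29.1 ± 5.54 CPM. Complexes III to V had 6 higher and 7 lower of 36, and the lower ones numbered 4 by library totals and 14 without KO acetate 4. The higher ones numbered 8 by library totals, 2 without the high-share libraries and 3 without KO untreated 2 or 3 or KO acetate 4. Uqcrfs1, the Rieske protein of complex III, rose from 86.9 ± 5.47 to 125 ± 8.70 CPM and Uqcrq, of the same complex, fell from 113 ± 7.22 to 83.6 ± 10.6 CPM. Of the 13 proteins encoded in mitochondrial DNA 8 fell, and none rose by edgeR, 0 by DESeq2 and 0 at an unadjusted p under 0.05. The falls numbered 3 without KO untreated 1 and 5 in the 8 KO libraries alone and without KO untreated 4, KO acetate 1 or KO acetate 2. mt-Nd4, a complex I subunit, stood at 4447, 2722, 3264 and 4068 CPM in KO untreated and 1908, 2161, 2012 and 2882 CPM in KO acetate libraries. KO acetate 4 lay above KO untreated 2, and the other acetate libraries lay below all untreated ones (log2 fold change −0.69, SE 0.142, adjusted p = 0.000725). Copies of mitochondrial genes in the nucleus make these counts uncertain. The proteins of the mitochondrial ribosome had 13 higher and 20 lower of 76, or 17 higher and 13 lower by library totals. The higher ones numbered 4 to 7 without any 1 of KO untreated 1, 2 and 3 and KO acetate 2, 3 and 4, 6 in the 8 KO libraries alone and 4 without the high-share libraries.

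In lipid synthesis, of 33 cholesterol synthesis and sterol genes 19 fell and 3 rose, against 9 and 4 by library totals. Srebf1, a factor for lipid genes, fell from 172 ± 18.3 to 129.7 ± 10.1 CPM, while Insig2, which holds SREBP proteins back, rose from 14.8 ± 1.19 to 25.6 ± 2.14 CPM. Fasn, fatty acid synthase, which builds palmitate from acetyl-CoA and malonyl-CoA, stood at 878, 767, 863 and 996 CPM in KO untreated and 409, 419, 469.8 and 455 CPM in KO acetate libraries. The groups did not overlap (log2 fold change −0.999, SE 0.0979, adjusted p = 2.21e-07). The synthetase Acsl5 fell from 274 ± 2.89 to 198 ± 9.29 CPM and Acsl4, which favours polyunsaturated fatty acids, rose from 193 ± 19.2 to 360.3 ± 61.5 CPM. Elovl6, an elongase, rose from 32.8 ± 4.07 to 62.8 ± 4.79 CPM. Fatty acid oxidation genes rose in 12 of 30 cases and fell in 7, against 14 and 3 by library totals. Acads and Acadm, acyl-CoA dehydrogenases for short and medium chains, rose from 20.1 ± 2.45 to 37.0 ± 5.57 CPM and from 29.6 ± 0.723 to 47.6 ± 1.61 CPM.

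Among redox genes Prdx1 fell from 505 ± 22.4 to 278 ± 40.6 CPM, Sod1 from 318 ± 14.4 to 189 ± 22.2 CPM and Gstt2 from 129 ± 14.5 to 66.3 ± 2.64 CPM, and the ferritin chains Fth1 and Ftl1, which store iron, fell from 548 ± 33.2 to 339 ± 37.8 CPM and from 433 ± 32.8 to 292 ± 27.9 CPM. Metallothionein Mt1 fell from 3.81 ± 1.18 to 1.17 ± 0.480 CPM. Over NRF2 and glutathione genes 8 rose and 11 fell of 34, against 12 and 9 by library totals, with 4 higher without the high-share libraries. Kynu, which splits kynurenine in tryptophan breakdown, stood at 12.9, 9.65, 10.8 and 8.27 CPM in KO untreated and 0.404, 0.299, 0.886 and 0.248 CPM in KO acetate libraries. It was low in all acetate libraries, a fall of 22.4-fold (log2 fold change −4.49, SE 0.393, adjusted p = 1.24e-07). Kmo, which acts on kynurenine too, fell from 2.18 ± 0.325 to 0.953 ± 0.237 CPM. Cyp1a1, the classic target of the aryl hydrocarbon receptor, stood at 27.4, 22.8, 29.6 and 28.1 CPM in KO untreated and 3.50, 2.92, 4.25 and 6.14 CPM in KO acetate libraries, again lower in every acetate library. Tiparp, another target of that receptor, rose from 18.1 ± 1.98 to 22.3 ± 1.98 CPM. The spermine oxidase Smox rose from 32.7 ± 1.66 to 79.9 ± 12.0 CPM and the spermidine synthase Srm fell from 259.9 ± 42.3 to 171 ± 26.8 CPM. The uridine phosphorylase Upp1 rose from 1.74 ± 0.299 to 18.1 ± 5.31 CPM.

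Among genes that set or read histone acetylation, 9 of 16 acetyltransferases and readers fell and 1 rose, with 4 lower by library totals. The rise was lost in the 8 KO libraries alone, without the high-share libraries, and without any 1 of KO untreated 1, 2 and 3, KO acetate 2 and 4 and WT untreated 1. Brd2, a bromodomain reader, stood at 488, 435, 505 and 529 CPM in KO untreated and 289, 277, 326 and 335 CPM in KO acetate libraries without overlap (log2 fold change −0.67, SE 0.0785, adjusted p = 1.7e-06). The acetyltransferases Crebbp and Kat2a fell from 54.1 ± 3.93 to 39.5 ± 4.24 CPM and from 62.2 ± 6.18 to 46.3 ± 4.38 CPM. Deacetylases and sirtuins were split, 6 higher and 4 lower of 18, or 8 and 1 by library totals. Sirt1, the nuclear NAD-dependent deacetylase, stood at 59.3, 52.8, 58.6 and 53.5 CPM in KO untreated and 30.5, 25.2, 29.9 and 28.9 CPM in KO acetate libraries, the untreated libraries all higher (log2 fold change −0.97, SE 0.0830, adjusted p = 4.75e-08), and Sirt5, a mitochondrial one, rose from 6.05 ± 0.744 to 9.25 ± 0.905 CPM. The nucleosome-binding protein gene Hmgn2 fell from 709 ± 63.6 to 216 ± 30.2 CPM; it has many processed copies, so that its count is uncertain.

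Counts of cell cycle genes depended on scaling. Of 36 DNA replication genes 18 fell and 3 rose, but 8 and 7 by library totals, and 11 fell without KO acetate 1. Of 38 mitosis genes 16 fell and 4 rose, against 6 and 7 by library totals, and 2 rose without KO acetate 1 or the high-share libraries. Cdc20 fell from 116 ± 14.04 to 71.7 ± 6.70 CPM, Pcna, the sliding clamp of DNA polymerases, from 669.8 ± 63.7 to 471 ± 39.2 CPM, Ccnd3 (cyclin D3) from 299 ± 23.98 to 199.5 ± 17.6 CPM and Cdk4 from 344 ± 30.1 to 242 ± 27.5 CPM, all with either scaling.

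Among genes of the cytoskeleton and the cell surface, Vim, which encodes the intermediate filament vimentin, stood at 1684, 1457, 1575 and 1709 CPM in KO untreated and 488, 521, 488 and 525 CPM in KO acetate libraries, with the groups far apart (log2 fold change −1.67, SE 0.0663, adjusted p = 1.2e-11). The unconventional myosin Myo1f fell from 38.2 ± 2.30 to 13.7 ± 1.79 CPM, the actin bundler Fscn1 from 10.4 ± 3.09 to 1.46 ± 0.339 CPM and the smooth muscle myosin Myh11 from 6.01 ± 1.48 to 0.459 ± 0.110 CPM. Itga3, an integrin subunit for laminin, rose from 76.5 ± 11.5 to 190.5 ± 13.6 CPM, Itgav from 57.7 ± 3.03 to 102 ± 22.1 CPM and Itgb5 from 0.252 ± 0.203 to 2.21 ± 0.302 CPM, while the adhesion protein Jaml fell from 33.9 ± 3.68 to 7.42 ± 0.988 CPM and Icam1 from 73.7 ± 7.61 to 46.6 ± 3.50 CPM. Of the G protein-coupled receptors, the prostaglandin E2 receptors Ptger4 and Ptger2 fell from 137 ± 7.55 to 70.1 ± 2.25 CPM and from 47.3 ± 6.28 to 28.3 ± 1.66 CPM, the proton-sensing receptor Gpr65 rose from 45.6 ± 3.59 to 134 ± 23.2 CPM, and the adenosine receptor Adora2a, which dampens T cells, rose from 30.1 ± 5.05 to 59.5 ± 5.08 CPM. Among channels Trpv2 rose from 25.3 ± 3.07 to 45.8 ± 3.06 CPM, and the aquaporins Aqp9 and Aqp4 fell from 9.84 ± 2.78 to 2.24 ± 0.786 CPM and from 5.70 ± 2.28 to 0.372 ± 0.205 CPM. In lysosomes the proteases Ctsl and Ctsz rose from 6.02 ± 0.720 to 17.8 ± 2.65 CPM and from 50.4 ± 4.52 to 96.5 ± 9.24 CPM, and Ulk1, which starts autophagy, fell from 67.1 ± 4.76 to 37.6 ± 3.09 CPM.

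**Figure D3:**
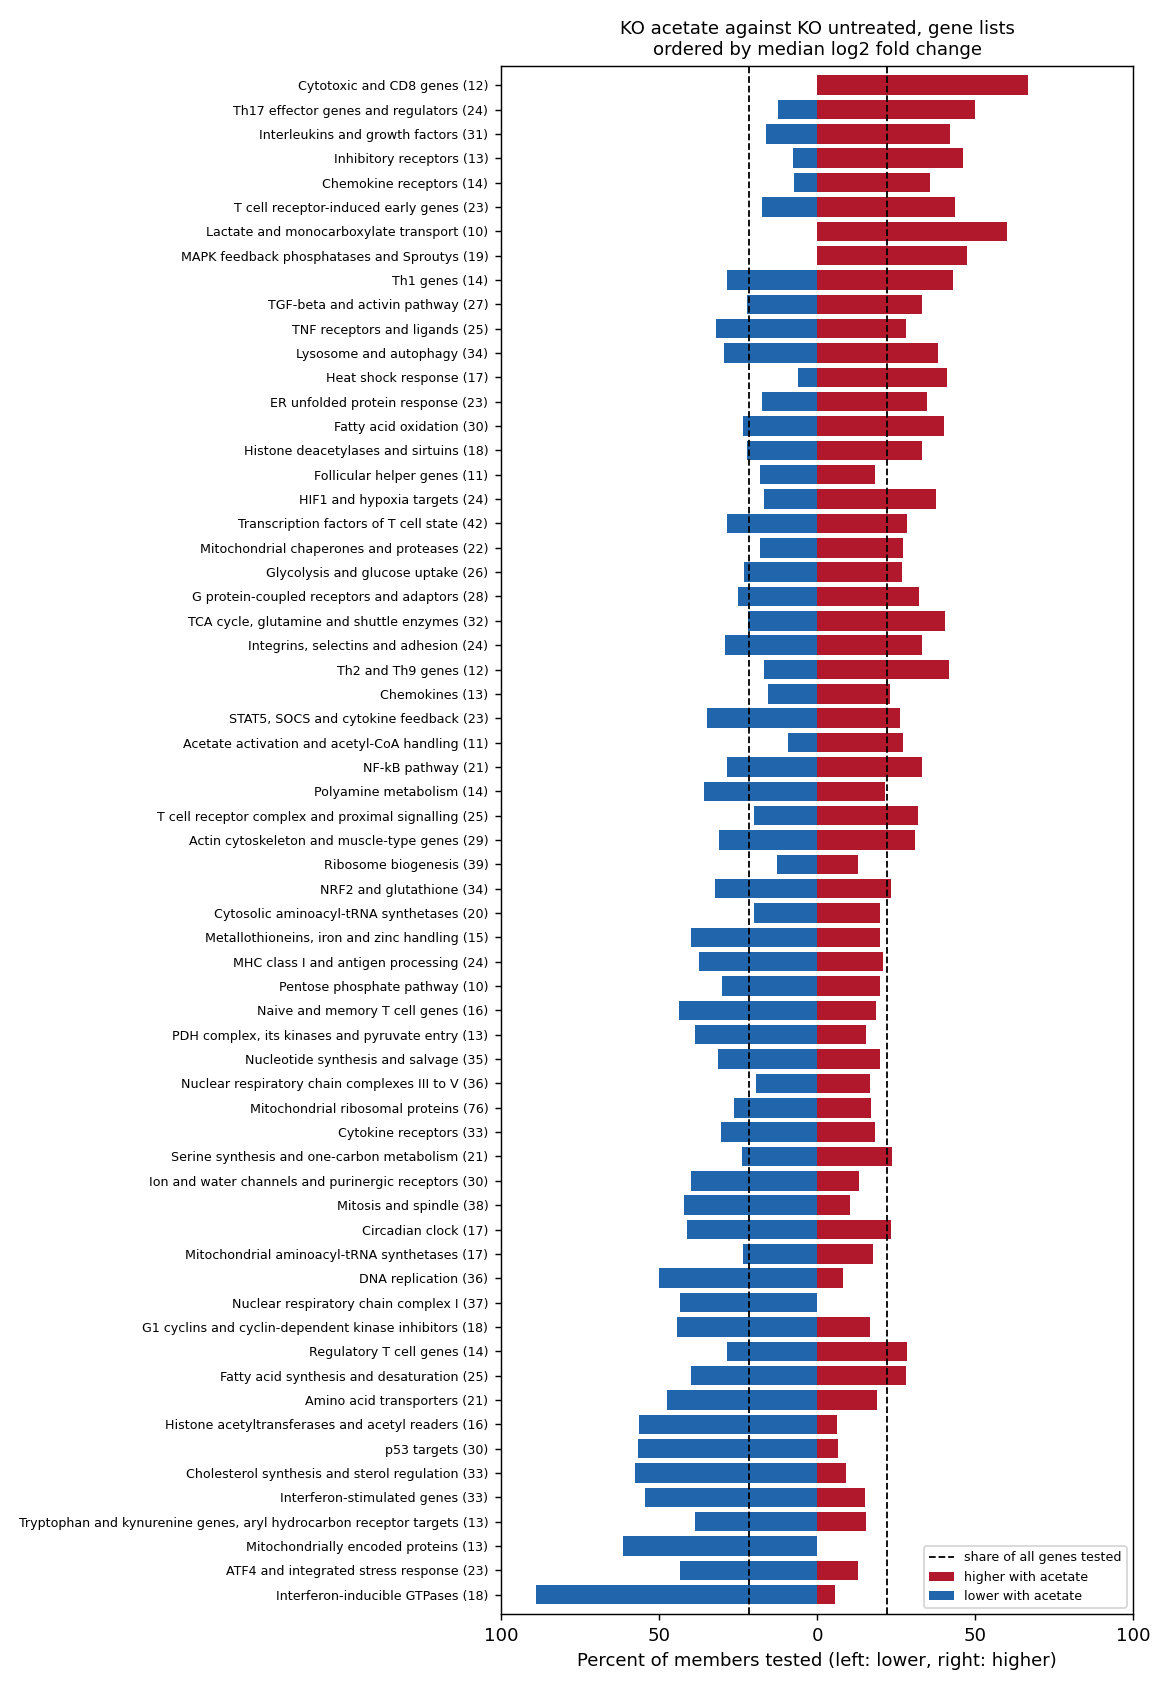
For every list with at least 10 genes tested, bars give the percent of members called higher (right) and lower (left) in KO acetate against KO untreated cells, with the number tested in brackets. Dashed lines mark the shares over all genes tested, 22.1% higher and 21.6% lower. Interferon-inducible GTPases stand at the bottom and cytotoxic and CD8 genes at the top.

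Among the genes with the largest fold changes was Ramp3, an accessory protein of calcitonin-family receptors. It stood at 0.272, 0.939, 0.432 and 0.331 CPM in KO untreated and 10.7, 21.2, 7.80 and 8.34 CPM in KO acetate libraries, near 0 in untreated cells. The gene rose 23.5-fold (log2 fold change 4.56, SE 0.766, adjusted p = 0.000363). Ccn4 and Ccn1, secreted matricellular proteins, rose 20.4- and 13.7-fold from below 1 CPM. Vat1, a membrane protein of vesicles, rose from 10.1 ± 1.56 to 94.2 ± 14.6 CPM and Tg, known as thyroglobulin, from 5.70 ± 2.03 to 52.8 ± 17.3 CPM. Among the other rises were Arhgef25, a guanine nucleotide exchange factor (0.703 ± 0.235 to 6.34 ± 1.26 CPM), the co-repressors Ctbp2 (0.844 ± 0.124 to 7.55 ± 1.07 CPM) and Rcor2 (1.26 ± 0.199 to 10.0 ± 1.62 CPM), the proteoglycan Spock2 (1.26 ± 0.164 to 10.1 ± 1.44 CPM), the glycosyltransferase B3gnt5 (0.707 ± 0.144 to 5.25 ± 0.931 CPM), Lzts2 (1.32 ± 0.120 to 8.92 ± 1.30 CPM) and Pde4a (0.819 ± 0.243 to 5.603 ± 0.837 CPM), which degrades cAMP. On the lower side Tspoap1, which encodes a RIM-binding protein, stood at 34.6, 112, 71.2 and 29.8 CPM in KO untreated and 3.47, 4.90, 4.82 and 3.80 CPM in KO acetate libraries, a fall of 14.6-fold without overlap. Dagla, which makes the endocannabinoid 2-arachidonoylglycerol, fell from 6.94 ± 2.04 to 0.494 ± 0.221 CPM, the phospholipase Plcd1 from 10.8 ± 2.16 to 1.41 ± 0.235 CPM, Tmem176a from 27.9 ± 7.72 to 3.82 ± 1.25 CPM, the receptor Gpr34 from 6.17 ± 0.587 to 1.08 ± 0.461 CPM, Impg2 from 14.8 ± 1.70 to 2.78 ± 0.594 CPM and the axon guidance receptor Robo3 from 12.3 ± 1.06 to 2.35 ± 0.901 CPM. Among abundant genes the kinase Mknk2, which phosphorylates eIF4E, fell from 645 ± 41.7 to 286 ± 18.04 CPM, Igfbp4, which binds insulin-like growth factors, fell from 441 ± 41.1 to 220.0 ± 39.4 CPM, and Nrn1 (neuritin) rose from 138 ± 20.7 to 327 ± 33.4 CPM.

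The acetate effect in WT cells was used to see where KO cells differed. In WT cells 2315 genes were called (15.4%), 7.89% of genes tested as higher and 7.55% as lower. By 2-fold or more, genes higher and lower there were 349 (2.33%) and 101 (0.674%). The WT and KO comparisons share no library, though they share the fit and its scaling. Genes called in both numbered 1846, of which 1816 changed in the same direction. Of the genes that rose in KO cells 28.8% rose in WT cells, and of those that rose in WT cells 80.7% rose in KO cells. For falls the shares were 26.6% and 76.1%. Across the 14985 genes the log2 fold changes had a Pearson r of 0.505 and a Spearman rho of 0.549, given as a description since genes are not independent replicates.

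**Figure D4:**
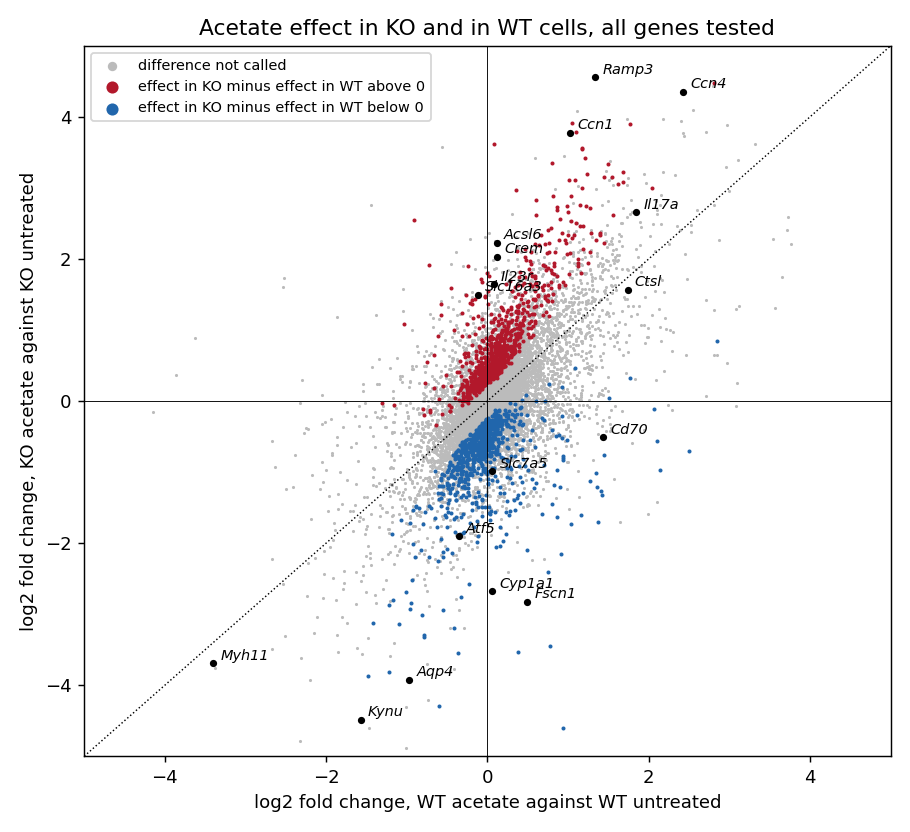
Each point is a gene tested, with its log2 fold change with acetate in WT cells on the horizontal axis and in KO cells on the vertical axis, and the dotted line marks equal effects. Coloured points passed the test of the difference between the effects. Both axes end at a log2 value of 5, beyond which 36 genes lie. Ramp3, Ccn4 and Il23r lie above the line, and Kynu, Aqp4 and Cyp1a1 below it.

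The test of the difference itself, in which the WT effect was subtracted from the KO effect, called 1785 genes (11.9%), 955 with a difference above 0 (6.37%) and 830 below (5.54%). Without the high-share libraries there were 546 and 464. Differences of over 1 on the log2 scale among them were 155 (1.03%) and 171 (1.14%) in the same order. WT cells held 27.3 ± 3.13 and 28.8 ± 1.82 CPM of Il23r, untreated first, and its effect differed from that in KO cells (log2 difference 1.56, SE 0.200, adjusted p = 0.000115). The same held for Hif1a (660.2 ± 89.9 and 707 ± 172 CPM in WT cells; log2 difference 1.07, SE 0.213, adjusted p = 0.00473) and Slc16a3 (119 ± 9.54 and 109 ± 24.4 CPM; log2 difference 1.61, SE 0.184, adjusted p = 5.89e-05), whose means without acetate were higher in WT than in KO cells. Il17a rose in both genotypes and the difference between the effects did not pass (log2 difference 0.82, SE 0.414, adjusted p = 0.234). For Acss1 it did not pass either (log2 difference 0.72, SE 0.250, adjusted p = 0.0686).

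Genes of the stress and transport lists also differed. Atf5 was at 14.9 ± 0.925 and 11.6 ± 1.55 CPM in WT cells (log2 difference −1.55, SE 0.161, adjusted p = 1.46e-05), Slc7a5 at 229 ± 23.8 and 239 ± 29.0 CPM (log2 difference −1.05, SE 0.137, adjusted p = 0.000104) and Ptger4 at 77.8 ± 5.34 and 69.6 ± 2.75 CPM (log2 difference −0.80, SE 0.0826, adjusted p = 1.46e-05). Each of these fell in KO cells from a mean above that of WT cells. Gbp6 was at 11.6 ± 1.82 and 9.12 ± 0.983 CPM (log2 difference −1.53, SE 0.164, adjusted p = 1.7e-05), and Gbp5 at 75.9 ± 3.27 and 40.4 ± 5.12 CPM, with a difference that did not pass (log2 difference −0.30, SE 0.148, adjusted p = 0.204). Among the largest differences were those of Fut4, a fucosyltransferase (4.53 ± 0.973 and 6.86 ± 2.12 CPM in WT and 1.31 ± 0.364 and 8.13 ± 0.887 CPM in KO cells; log2 difference 2.02, SE 0.321, adjusted p = 0.000608), Acsl6, a synthetase for long-chain acyl-CoA (4.16 ± 0.968 and 4.51 ± 2.37 CPM in WT and 1.49 ± 0.355 and 6.97 ± 1.10 CPM in KO cells; log2 difference 2.11, SE 0.423, adjusted p = 0.00423), Kynu (log2 difference −2.92, SE 0.545, adjusted p = 0.00262), Fscn1 (log2 difference −3.31, SE 0.339, adjusted p = 1.46e-05), Angptl6, a secreted protein of the angiopoietin-like family (1.42 ± 0.277 and 1.57 ± 0.571 CPM in WT and 8.05 ± 3.39 and 2.35 ± 0.908 CPM in KO cells; log2 difference −1.93, SE 0.448, adjusted p = 0.00971), and Cd70, the CD27 ligand (2.67 ± 0.939 and 7.28 ± 1.30 CPM in WT and 14.2 ± 5.38 and 9.99 ± 0.333 CPM in KO cells; log2 difference −1.95, SE 0.362, adjusted p = 0.00307). Those of Acsl6 and Angptl6 did not pass without the high-share libraries (adjusted p = 0.0569 and 0.0505). Cd70 rose in WT cells and did not pass the test in KO cells, where it passed as lower without KO untreated 1 (adjusted p = 0.00742). Counted by list, the difference was called above 0 for 7 and below 0 for 1 of 26 glycolysis genes, for 2 and 5 of 21 amino acid carriers and for 2 and 9 of 33 interferon-stimulated genes. Of 33 cholesterol and sterol genes 19 fell and 3 rose in KO cells, 11 fell and 1 rose in WT cells, and edgeR called 0 differences. Of 12 cytotoxic and CD8 genes 8 rose in KO and 6 in WT cells, and edgeR called the difference above 0 for 2 and below for 0. Myh11 fell in both genotypes, from 7.22 ± 3.32 to 0.679 ± 0.309 CPM in WT cells, and Ctsl rose in both, from 5.47 ± 0.300 to 18.3 ± 4.29 CPM in WT cells, without a called difference (adjusted p = 0.762 and 0.642).

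KO acetate cells were set beside WT untreated cells to see how far the 2 groups stood apart; the comparison shares its KO acetate libraries with the one above. It called 3954 genes (26.4%), 1935 higher in KO acetate (12.9%) and 2019 lower (13.5%). By 2-fold or more the counts were 632 (4.22%) and 128 (0.854%). Hif1a (726 ± 89.2 CPM in KO acetate and 660.2 ± 89.9 CPM in WT untreated cells), Il23r (24.4 ± 1.54 and 27.3 ± 3.13 CPM), Slc7a5 (241 ± 30.6 and 229 ± 23.8 CPM) and Atf5 (13.6 ± 2.27 and 14.9 ± 0.925 CPM) did not pass the test, with log2 differences of 0.14 ± 0.150, −0.16 ± 0.137, 0.08 ± 0.0968 and −0.13 ± 0.115 (SE). Slc16a3 was lower in KO acetate (84.97 ± 7.65 and 119 ± 9.54 CPM, adjusted p = 0.0116). Il17a was higher (868 ± 258 and 135 ± 44.4 CPM, adjusted p = 7.55e-05) and Vim lower (506 ± 20.4 and 1070.3 ± 67.2 CPM, adjusted p = 1.03e-08). Of 37 complex I genes 15 were lower and 0 higher in KO acetate than in WT untreated cells by edgeR, or 23 and 0 at an unadjusted p under 0.05. Of 23 ATF4 genes 4 were higher and 0 lower by edgeR, or 7 and 1 at an unadjusted p under 0.05.

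**Figure D5:**
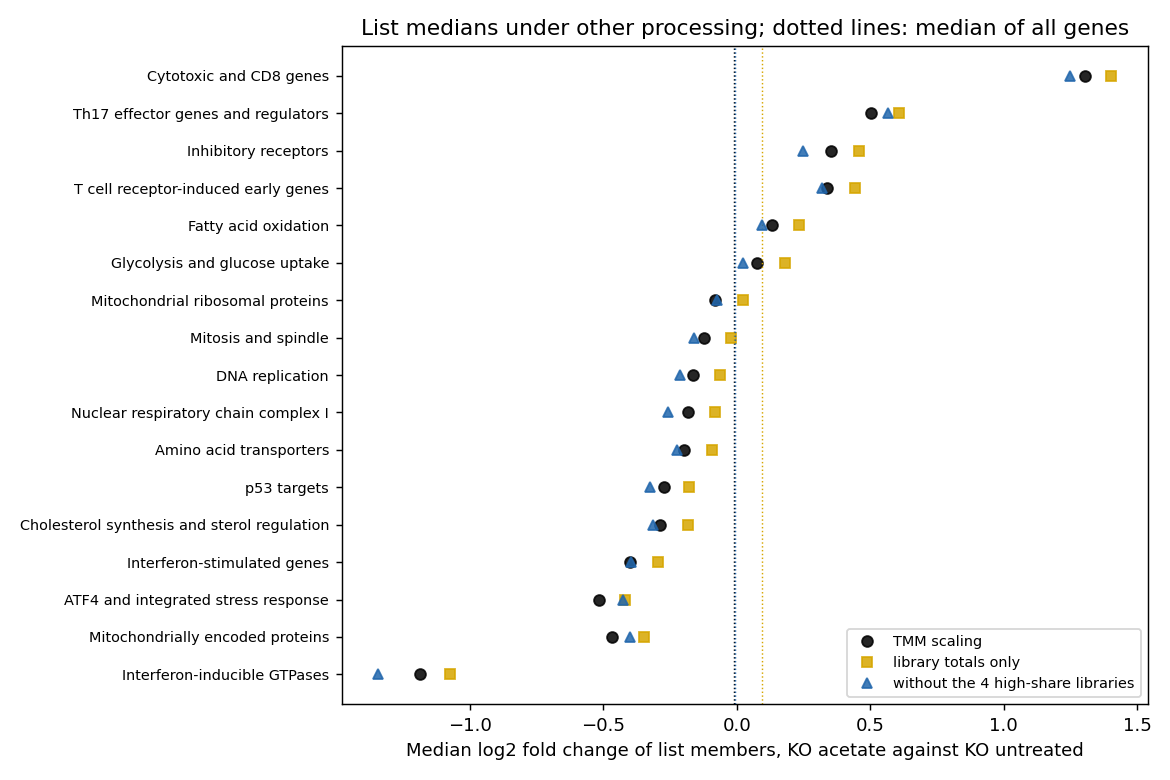
The median log2 fold change of the members of 17 lists, KO acetate against KO untreated, is plotted for TMM scaling, for library totals alone and for TMM scaling without the 4 high-share libraries, and dotted lines mark the median over all genes in each. Interferon-inducible GTPases were lowest and cytotoxic and CD8 genes highest with all 3. By library totals the median of the mitochondrial ribosomal proteins lay above 0, at 0.02, but below the median over all genes of 0.09.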

How the data were processed

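Th17 cells of 4 groups with 4 libraries each were measured by RNA sequencing of polyadenylated RNA with a stranded kit, per the labels' protocols. The deposited table holds estimated counts per gene, already whole numbers, for 15571 Ensembl genes, and per the submitters' processing notes Salmon, DESeq and DESeq2 were among the tools, with no version or role given. The genome build is not given in the sources used here. Names came from a reference table (15221 IDs matched). Counts of all 16 libraries entered 1 group-means fit with edgeR 4.0.16 (TMM scaling, filterByExpr, robust quasi-likelihood F test) in R 4.3.3, with Benjamini-Hochberg adjustment over 14985 genes. Contrasts gave the acetate effect in KO cells, that in WT cells, their difference, and KO acetate against WT untreated cells. DESeq2 1.42.0 and other settings served as alternatives, and the steps were tested on simulated data. Depth was 26.7 to 31.5 M counts per KO library. No 2 KO libraries of a group held the same counts.

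The members of the gene lists and the comparison were chosen with earlier results of these data known. Genes are named where they were among the 15 largest rises or falls without overlap and with at least 5 CPM, the 15 most abundant with at least a 2-fold change, the 6 of a list with the smallest adjusted p, any member of the PDH, acetate and Th17 lists, or the 10 largest differences from WT in each direction. List members that did not pass were named from any list, and Cbs, Eif2ak3, Ifit1 and Irgm1 were chosen after their values were seen. Some genes that the rule names are not reported here. Promoters are RefSeq windows on GRCm38.p6.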

Additional observations from a re-analysis of the deposited data

Results flagged for a closer look

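In 21 of 542 groups of 4 values 1 library stood apart from the other 3 by Dixon's test, where chance alone flags about 1 in 20 groups. Acsl4 was highest in KO untreated 1 at 221 CPM, against 179 to 186 CPM in the other 3. Ctbp2 was highest in KO untreated 4 at 1.03 CPM, against 0.777 to 0.791 CPM in the other 3. Dusp4 was lowest in KO untreated 2 at 107 CPM, against 120.4 to 121 CPM in the other 3. Fscn1 was highest in KO untreated 2 at 14.99 CPM, against 8.71 to 8.94 CPM in the other 3. Gbp2 was lowest in KO untreated 2 at 232 CPM, against 339.7 to 349 CPM in the other 3. Hsf1 was highest in KO untreated 4 at 66.6 CPM, against 53.2 to 54.7 CPM in the other 3. Il23r was highest in KO untreated 4 at 11.5 CPM, against 6.22 to 6.94 CPM in the other 3. Lef1 was highest in KO untreated 4 at 266 CPM, against 241 to 243 CPM in the other 3. Oma1 was highest in KO untreated 2 at 29.2 CPM, against 22.6 to 23.1 CPM in the other 3. Vat1 was highest in KO untreated 4 at 12.4 CPM, against 9.09 to 9.49 CPM in the other 3. Zeb2 was lowest in KO untreated 1 at 14.8 CPM, against 16.5 to 16.7 CPM in the other 3. Adssl1 was highest in KO acetate 2 at 6.92 CPM, against 3.62 to 3.84 CPM in the other 3. Cd8b1 was highest in KO acetate 2 at 15.9 CPM, against 11.7 to 12.2 CPM in the other 3. Hk1 was lowest in KO acetate 4 at 198 CPM, against 232 to 237 CPM in the other 3. Il23r was highest in KO acetate 4 at 26.7 CPM, against 23.4 to 23.8 CPM in the other 3. Irgm1 was highest in KO acetate 4 at 26.8 CPM, against 22.3 to 22.8 CPM in the other 3. Myc was highest in KO acetate 3 at 436 CPM, against 393 to 395 CPM in the other 3. Pfkfb3 was highest in KO acetate 3 at 62.9 CPM, against 56.8 to 57.1 CPM in the other 3. Prdx1 was highest in KO acetate 4 at 338 CPM, against 250.2 to 261 CPM in the other 3. Slc16a7 was lowest in KO acetate 2 at 0.785 CPM, against 1.17 to 1.25 CPM in the other 3. Ulk1 was highest in KO acetate 2 at 42.2 CPM, against 35.7 to 36.5 CPM in the other 3.

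For 154 of the 255 genes named, the acetate effect in KO cells differed from that in WT cells by edgeR's test of the difference. It was above 0 for 77 genes and below 0 for 77. Over all genes tested the share was 11.9% (1785 of 14985). The named genes were chosen largely for their changes in KO cells or their differences from WT cells. Their share therefore does not stand for all genes. The values given below are log2 differences, KO minus WT. The lactate and monocarboxylate transport list gave 1.61 for Slc16a3 and 0.37 for Emb. The histone acetyltransferases and acetyl readers list gave −0.55 for Brd2. The histone deacetylases and sirtuins list gave −0.48 for Sirt1 and 0.62 for Sirt5. The Th17 effector genes and regulators list gave 1.56 for Il23r, 0.58 for Stat3, 1.07 for Hif1a and 0.61 for Lgals3. The Th1 genes list gave 1.39 for Stat4, −0.91 for Il18rap, 0.49 for Runx3 and −0.39 for Il27ra. The cytotoxic and CD8 genes list gave 0.96 for Gzmb. The follicular helper genes list gave 1.05 for Cxcr5. The naive and memory T cell genes list gave 0.59 for Satb1, −0.84 for Id3, −0.52 for Klf3 and 1.43 for Ly6c1. The T cell receptor complex and proximal signalling list gave 0.31 for Ptprc and 1.14 for Cblb. The T cell receptor-induced early genes list gave 1.74 for Nr4a2, −0.50 for Myc and 1.80 for Fosl2. The inhibitory receptors list gave 1.41 for Ctla4, 1.25 for Tigit and 0.54 for Vsir. The TNF receptors and ligands list gave −0.60 for Tnfsf8, 0.37 for Cd40lg and −1.95 for Cd70. The interleukins and growth factors list gave 0.85 for Lif and 1.93 for Ccn4. The chemokines list gave −2.17 for Cxcl10. The integrins, selectins and adhesion list gave 1.13 for Itga3, 2.03 for Itgb5, −0.68 for Icam1 and −1.30 for Jaml. The TGF-beta and activin pathway list gave 0.99 for Inhba. The STAT5, SOCS and cytokine feedback list gave −0.34 for Jak3 and −0.94 for Pim2. The NF-kB pathway list gave 0.42 for Nfkb1, 0.68 for Rel, −0.45 for Relb, −0.72 for Nfkbia and −0.58 for Birc3. The MAPK feedback phosphatases and Sproutys list gave 2.10 for Dusp3, 0.85 for Dusp4, 0.68 for Dusp5 and 0.93 for Spred2. The interferon-stimulated genes list gave −2.27 for Isg15, −2.24 for Ifit1, −0.40 for Ifi35, −2.16 for Irf7 and −0.61 for Irf1. The interferon-inducible GTPases list gave −0.68 for Gbp2, −0.61 for Gbp3, −1.53 for Gbp6 and −0.60 for Gvin1. The MHC class I and antigen processing list gave 0.41 for Psmb8 and −0.65 for Psmb9. The ATF4 and integrated stress response list gave −0.67 for Atf4, −1.55 for Atf5 and −0.90 for Cebpb. The amino acid transporters list gave −0.76 for Slc3a2, 0.50 for Slc6a6, −0.58 for Slc7a1, −1.05 for Slc7a5, 0.50 for Slc36a4 and −0.61 for Slc38a2. The cytosolic aminoacyl-tRNA synthetases list gave 0.36 for Qars and −0.41 for Vars. The mitochondrial aminoacyl-tRNA synthetases list gave −0.54 for Sars2 and −0.50 for Wars2. The serine synthesis and one-carbon metabolism list gave −0.56 for Phgdh and −0.75 for Shmt2. The ER unfolded protein response list gave 0.34 for Hyou1, −0.77 for Herpud1, 0.46 for Pdia6 and −1.89 for Derl3. The heat shock response list gave 0.58 for Bag3 and 0.62 for Hspa4l. The mitochondrial chaperones and proteases list gave −0.49 for Oma1. The glycolysis and glucose uptake list gave −0.71 for Slc2a6, 0.65 for Hk1, 0.74 for Hk2 and 0.60 for Pfkfb3. The pentose phosphate pathway list gave −0.50 for Pgls and 0.26 for Taldo1. The TCA cycle, glutamine and shuttle enzymes list gave 0.31 for Idh3a, −0.31 for Idh3g, 0.25 for Suclg1, −0.73 for Pcx, 0.77 for Gls2 and 0.59 for Slc25a12. The nuclear respiratory chain complex I list gave −0.52 for Ndufa2 and −0.36 for Ndufs3. The nuclear respiratory chain complexes III to V list gave 0.36 for Uqcrfs1 and −0.47 for Uqcrq. The mitochondrially encoded proteins list gave −0.71 for mt-Nd4. The polyamine metabolism list gave 0.83 for Smox. The fatty acid synthesis and desaturation list gave −0.50 for Fasn, 1.10 for Elovl6 and 0.68 for Acsl4. The fatty acid oxidation list gave 0.48 for Acadm. The p53 targets list gave −1.36 for Gadd45a. The NRF2 and glutathione list gave −0.93 for Gstt2, −0.69 for Prdx1, −0.64 for Sod1, −0.42 for Ftl1 and −0.49 for Fth1. The tryptophan and kynurenine genes, aryl hydrocarbon receptor targets list gave −2.92 for Kynu and −2.74 for Cyp1a1. The lysosome and autophagy list gave 0.38 for Ctsz, 0.49 for Neu1, 0.40 for Atp6v1a and −0.49 for Ulk1. The ion and water channels and purinergic receptors list gave −2.95 for Aqp4, −1.58 for Aqp9, 0.92 for Trpv2 and 0.55 for Adora2a. The G protein-coupled receptors and adaptors list gave 3.22 for Ramp3, −1.58 for Gpr34, 1.24 for Gpr65, −0.85 for Ptger2 and −0.80 for Ptger4. The actin cytoskeleton and muscle-type genes list gave −3.31 for Fscn1, −0.59 for Myo1f, 0.58 for Cnn3, 0.46 for Tpm1 and −0.60 for Vim. The transcription factors of T cell state list gave 0.49 for Zeb2, 0.49 for Zbtb32, −1.17 for Tsc22d3 and 1.91 for Crem. The circadian clock list gave −0.996 for Dbp. The list of dendritic cell markers gave −1.79 for Cd74. Outside the lists the difference was 2.11 for Acsl6, −1.93 for Angptl6, 1.62 for Arhgef25, 1.85 for B3gnt5, 2.75 for Ccn1, 1.71 for Ctbp2 and −2.59 for Dagla. It was also 2.02 for Fut4, −0.75 for Hmgn2, 1.53 for Lzts2, −0.70 for Mknk2, 0.82 for Nrn1, −1.97 for Plcd1, 0.95 for Rcor2 and 1.82 for Spock2. It was also 1.97 for Tg, −2.39 for Tspoap1 and 1.55 for Vat1. Of these differences 98 passed the test under every alternative run, 46 did not pass without the high-share libraries and 23 did not pass by library totals. The difference of Ramp3 was near the threshold and was lost under most alternatives.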

How the results depend on the processing

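With TMM scaling 244 of the 255 genes named were called in KO cells, and 242 kept call and direction under every alternative run. The exceptions were Pdhb, by library totals, and Cbs, without the high-share libraries. Most of these genes were named for small adjusted p or large changes in KO cells, so their counts do not measure how stable calls are. Over all genes, 5399 of the 6550 calls in KO cells were kept by library totals and 4837 without the high-share libraries. Alternatives were library totals, RLE scaling, DESeq2, no filter on low counts, a fit of the 8 KO libraries alone, a term for replicates 1 and 2 against 3 and 4, the unnamed gene left out, the high-share libraries left out and each library left out in turn. No call shared with them was opposite in KO cells. By library totals 2085 genes were lower with acetate in KO cells and 558 in WT cells, 442 had a difference between the effects below 0, and 1254 were lower in KO acetate than in WT untreated cells. The cause was not tested. Without the high-share libraries the differences numbered 546 above and 464 below 0, from fewer libraries. At 2-fold or more, genes higher and lower were 852 and 651 in KO cells, 349 and 101 in WT cells, 155 and 171 for the difference and 632 and 128 for KO acetate against WT untreated cells, by construction fewer. Leaving out 1 library gave 2889 to 3359 higher and 2856 to 3306 lower genes in KO cells, and 734 to 1168 lower genes in WT cells, the fewest without WT acetate 1. With the replicate number as a block 3454 genes were higher and 3397 lower in KO cells. Deviations of same-numbered KO libraries correlated at 0.0862, 0.164, 0.165 and 0.136, and each KO library correlated best with its own number. Same-numbered WT libraries correlated at −0.0178, 0.119, 0.0262 and 0.0467. WT untreated 1 correlated best with WT acetate 3 (0.198), and WT untreated 4 with WT acetate 2 (0.109). The labels state no pairing, so the block was kept as an alternative, and whether the numbers mark pairs was not settled. With the block Csf2 and Pdha1 passed (adjusted p = 0.0221 and 0.0468), 1 monocarboxylate transport gene was lower, where none was without it, as were 2 genes of acetate handling, where 1 was, and 8 of ribosome biogenesis, where 5 were. It changed no other call of the genes named, and no count over all genes by over 1.5 times. Changes of low genes under about 1 CPM rest on few counts.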

Other observations

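Some gene groups outside the comparisons above are given here as values, KO untreated first. Circadian clock genes had 4 higher and 7 lower members of 17. Dbp, a clock output factor, fell from 4.44 ± 0.851 to 1.69 ± 0.0823 CPM, Arntl, the core activator BMAL1, from 26.8 ± 1.42 to 19.2 ± 1.96 CPM, Nr1d2, a repressor of the loop, from 15.5 ± 2.42 to 10.2 ± 0.725 CPM and Per2 from 3.71 ± 0.494 to 2.18 ± 0.303 CPM, while Per1 rose from 28.8 ± 2.07 to 38.5 ± 4.33 CPM. Of 17 synthetases that load tRNA in mitochondria 3 rose and 4 fell, against 4 and 3 by library totals, among the falls Sars2, from 31.9 ± 1.96 to 18.6 ± 1.90 CPM, and Wars2, from 17.2 ± 1.39 to 10.5 ± 0.808 CPM. Summed over these 17 genes, the level ran from 1769 to 17150 CPM in KO untreated and from 1877 to 15280 CPM in KO acetate libraries. In WT untreated libraries the sum ran from 1194 to 13520 CPM, and in WT acetate libraries from 971 to 1985 CPM. Sars2 and Wars2 do not carry this spread, and the members that do are not named here. WT acetate is the only group without a high-share library. The cause of the spread was not tested. The mitochondrial protease Oma1, which relays stress of the organelle, fell from 24.4 ± 3.18 to 16.9 ± 0.287 CPM, and the chaperonin subunit Hspe1 rose from 229 ± 14.9 to 291 ± 11.1 CPM.

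Of 42 transcription factors of T cell state 12 rose and 12 fell, or 19 and 10 by library totals. Tsc22d3, the glucocorticoid-induced zipper protein GILZ, fell from 31.4 ± 7.84 to 12.9 ± 2.05 CPM and Id3, an inhibitor of E proteins, from 64.0 ± 2.63 to 46.1 ± 6.67 CPM. Runx2 rose from 13.3 ± 2.20 to 32.9 ± 5.04 CPM, Zbtb32 from 93.8 ± 9.53 to 196 ± 14.98 CPM and Zeb2 from 16.2 ± 0.894 to 28.4 ± 2.60 CPM. Lysosome genes had 13 higher and 10 lower of 34, against 17 and 5 by library totals. Atp6v1a, a subunit of the proton pump, rose from 106 ± 2.64 to 165 ± 13.7 CPM and the sialidase Neu1 from 21.5 ± 1.69 to 35.7 ± 3.27 CPM. Among actin genes Cnn3 (calponin) rose from 48.1 ± 4.97 to 105 ± 7.13 CPM and Tpm1 (tropomyosin) from 37.8 ± 2.72 to 63.4 ± 2.25 CPM, in a list with 9 higher and 9 lower of 29. Adssl1, an enzyme of purine nucleotide synthesis, rose from 0.497 ± 0.396 to 4.52 ± 1.60 CPM.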
